A study of Sus scrofa with 15 samples.

Results

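The supply of NADPH and citrate for fatty acid synthesis was examined through 8 genes, chosen by symbol, with earlier results of these data known: ME1, PGD, PGLS, TKT, TALDO1, IDH1, SLC25A1 and NNT. All 8 symbols could be paired with an Ensembl identifier among the 30477 genes counted in each library. The libraries are 15 samples of subcutaneous backfat RNA, each from a different growing Iberian pig, with 5 pigs in each of 3 diets. The control (C) pigs received a compound feed, the dry olive pulp (DOP) pigs a compound feed containing olive pulp, and the wet crude olive cake (WCOC) pigs a feed without by-product together with a silage of olive cake and straw at will. All pigs were of the same breed, shared the age and the length of feeding, and were biopsied at the end of the growing period. The compound feeds were restricted, in DOP and WCOC to a lower share of free energy intake than in C. Each diet was given in 1 pen, so that neither pen nor feeding level can be told apart from diet. Intake was not recorded per pig, and the 5 samples per diet had been selected mainly by quantity and quality of RNA.

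Fatty acid synthesis in fat cells needs acetyl groups, which leave the mitochondrion as citrate, and reducing power in the form of NADPH. SLC25A1 carries citrate out of the mitochondrion, ATP citrate lyase splits it in the cytosol, and the carbon that remains can return as pyruvate through malic enzyme, which yields NADPH. The pentose phosphate pathway is the other large cytosolic source of NADPH, and isocitrate dehydrogenase adds to it. In pigs, the subcutaneous fat is a main site of this synthesis, and malic enzyme is one of the lipogenic enzymes commonly assayed there.

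By role, ME1 is the cytosolic malic enzyme. PGLS and PGD act in the oxidative branch of the pentose phosphate pathway, where PGD is the step that yields the later NADPH, while TKT and TALDO1 rearrange the sugars of the non-oxidative branch. IDH1 is the isocitrate dehydrogenase of the cytosol and peroxisome. NNT sits in the inner mitochondrial membrane and makes mitochondrial NADPH from NADH. In the RefSeq annotation of Sscrofa11.1 these genes lie on 7 chromosomes. ME1 spans chr1:82799878-82989895 on the plus strand in 14 exons, SLC25A1 spans chr14:50974616-51002970 on the minus strand, NNT spans chr16:28157192-28248732 on the plus strand and IDH1 spans chr15:111341153-111362330 on the minus strand. PGD spans chr6:70675751-70692697 (plus), TKT chr13:35348921-35377518 (minus), PGLS chr2:60186690-60198037 (minus) and TALDO1 chr2:464781-472836 (plus).

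The 300 bases directly before the annotated start of the 4 genes that were called in a comparison below are shown from the RefSeq Sscrofa11.1 sequence, 5′ to 3′ on the strand of the gene, because these genes were called lower in WCOC against at least 1 of the other diets. The start is that of the curated transcript for SLC25A1, which begins far inside the longest predicted one, and of the most upstream transcript for the other genes. Capitals mark matches, on either strand, to a sterol element core (TCACNCCAC), an antioxidant element core (TGACNNNGC). They also mark an E-box, searched for as CACGTG, and a GC box, searched for as GGGCGG. The last motif marked is the CCAAT box, which is named by its own letters.
ME1, chr1:82799578-82799877, plus strand: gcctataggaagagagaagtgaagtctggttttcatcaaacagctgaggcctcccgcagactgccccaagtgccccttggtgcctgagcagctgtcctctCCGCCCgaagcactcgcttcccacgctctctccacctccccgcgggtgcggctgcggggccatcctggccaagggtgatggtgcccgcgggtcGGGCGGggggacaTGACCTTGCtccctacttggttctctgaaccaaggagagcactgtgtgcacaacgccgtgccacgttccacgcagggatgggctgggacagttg
SLC25A1, chr14:50977527-50977826, minus strand: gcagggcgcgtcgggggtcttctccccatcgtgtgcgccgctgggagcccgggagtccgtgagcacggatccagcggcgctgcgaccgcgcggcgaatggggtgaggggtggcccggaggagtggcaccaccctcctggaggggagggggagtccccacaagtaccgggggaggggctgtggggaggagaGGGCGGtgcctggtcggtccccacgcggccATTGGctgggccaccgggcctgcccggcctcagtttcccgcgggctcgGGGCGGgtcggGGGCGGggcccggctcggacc
NNT, chr16:28156892-28157191, plus strand: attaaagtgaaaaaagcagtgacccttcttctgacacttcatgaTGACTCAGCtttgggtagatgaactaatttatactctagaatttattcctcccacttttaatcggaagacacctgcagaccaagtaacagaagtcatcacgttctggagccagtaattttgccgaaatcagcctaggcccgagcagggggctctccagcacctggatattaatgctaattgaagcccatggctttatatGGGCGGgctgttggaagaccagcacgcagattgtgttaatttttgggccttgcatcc
IDH1, chr15:111362331-111362630, minus strand: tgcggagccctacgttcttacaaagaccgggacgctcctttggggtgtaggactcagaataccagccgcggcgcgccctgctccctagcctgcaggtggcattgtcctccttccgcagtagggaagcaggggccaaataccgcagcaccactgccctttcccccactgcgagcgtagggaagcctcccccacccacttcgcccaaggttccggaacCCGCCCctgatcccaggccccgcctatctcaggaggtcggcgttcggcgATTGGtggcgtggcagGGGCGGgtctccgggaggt

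The ME1 window held 1 antioxidant element core, 94 bases before the start, and 2 GC boxes. The NNT window held 1 antioxidant element core, 256 bases before the start, and 1 GC box. The SLC25A1 window held 3 GC boxes and 1 CCAAT box, and the IDH1 window 2 GC boxes and 1 CCAAT box. No match of these motifs overlapped a match of another motif in the 4 windows. Of 19556 windows of the same length before protein-coding genes, 48.1% held the GC box, 35.6% the CCAAT box, 11.8% the antioxidant element core, 7.30% the E-box and 0.956% the sterol element core. The antioxidant element core was also matched in the windows of PGD and PGLS, which are not among the 4 called genes. Neither the E-box nor the sterol element core was matched in the 8 windows. GC content was 76.7% for SLC25A1, 66.0% for IDH1, 63.7% for ME1 and 45% for NNT. These matches are a description of letters and no binding was measured.

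Levels are given as CPM, the counts of a gene relative to the library total, scaled between libraries by TMM, a factor that sets the bulk of the genes level. Counts on genes ran from 22373715 to 34745218 per library, so that 6 of the 8 genes were read deeply: the lowest of their counts was 1359 (NNT in WCOC 4). The other 2 genes were not. TALDO1 was listed at 0 counts in all 15 libraries. With a floor of 3 counts, this limits its level to 0.0863 to 0.134 CPM by library, before TMM scaling. Its enzyme is a housekeeping step of the pentose phosphate pathway, and 782 of 14864 genes with a symbol (5.26%) were likewise at 0 in every library. In the RefSeq annotation an exon of TALDO1 shares sequence with GATD1 on the opposite strand, and GATD1 had 3152 to 6417 counts per library. Whether this overlap bears on the zeros was not tested. PGLS had 1 to 15 counts per library, so its level between diets was not resolved at this depth. Why PGLS had so few counts was not tested, so its CPM, fold changes and correlations may not stand for its expression. The floor covers counting error only.

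**Figure D1:**
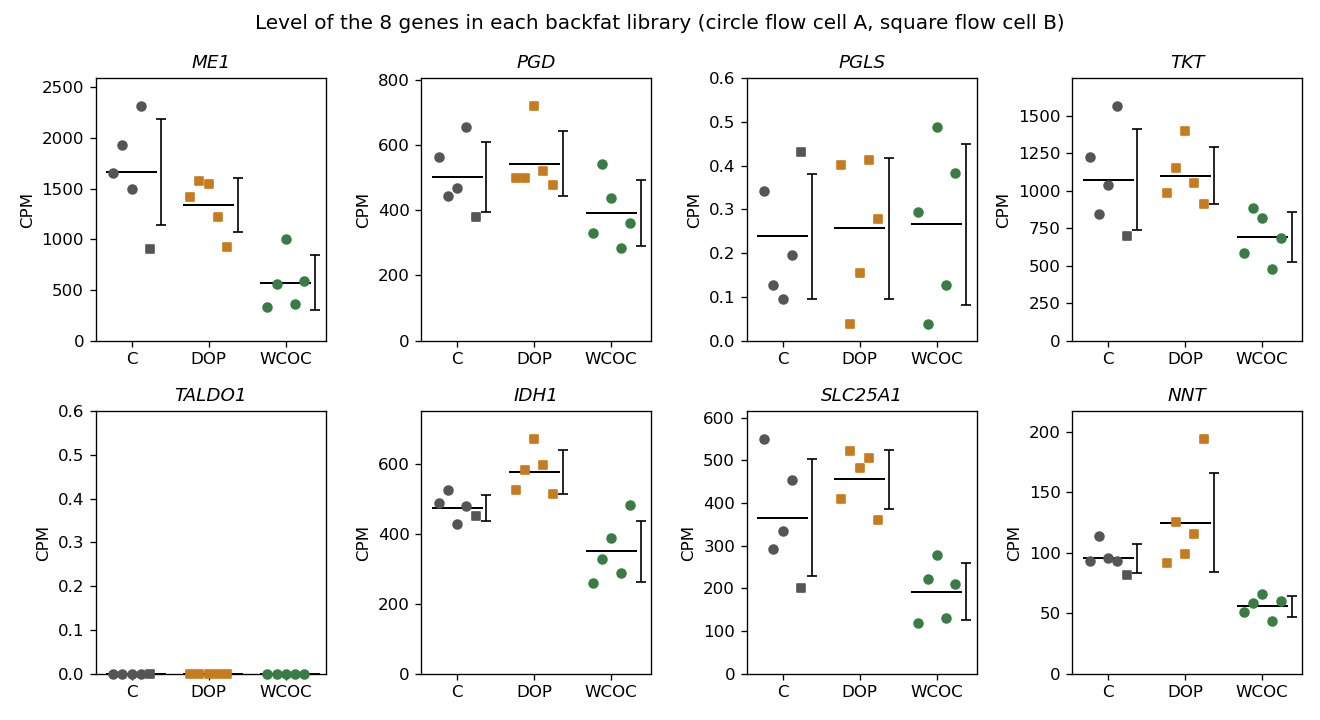
TMM-scaled CPM (linear axes from 0) of each of the 8 genes in every library, by diet, with the mean (line) and SD (bar beside the points) of 5 pigs; circles are libraries of flow cell A and squares of flow cell B. Each WCOC library lies below all others in NNT, while those of ME1 and SLC25A1 overlap C, TALDO1 is at 0 throughout and PGLS stays under 0.5 CPM.

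Levels per kilobase of annotated exon give a rough scale for comparing different genes. On it the order in C was TKT (480.7 ± 151.1 CPM per kb, SD, n = 5), ME1 (475.4 ± 149.7), PGD (251.4 ± 53.9), SLC25A1 (175.9 ± 66.0), IDH1 (87.4 ± 6.75) and NNT (14 ± 1.73). TKT and ME1 differed by less than their spread in C, and the ranges of PGD (190.9 to 328.0) and SLC25A1 (96.1 to 263.9) overlapped. The same order held for the means in DOP, from 493.1 ± 84.9 CPM per kb for TKT to 18.4 ± 5.99 for NNT. In WCOC, ME1 (162.9 ± 77.6 CPM per kb) came after PGD (196.1 ± 50.7), although these ranges overlapped, and TKT stayed highest at 309.4 ± 75.3. Lengths are those of all RefSeq exons of a gene merged, so that unused exons lower a level. The counts were taken on Ensembl genes, whose exons may differ, so the order between genes is approximate.

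Markers of the tissue were read in every library. The 13 matched adipocyte markers were above 0 in all libraries and summed to 18200 to 23910 CPM in C, 20900 to 27220 in DOP and 19540 to 27620 in WCOC. Markers of skeletal muscle were uneven, and their 7 matched genes summed to 221.4 to 3854 CPM in C, 201.3 to 48080 in DOP and 193.9 to 948.4 in WCOC, with DOP 5 highest. The 15 macrophage markers, none of them at 0 in any library, summed to 372.8 to 1084 CPM in C, 249.1 to 613.8 in DOP and 200.3 to 464.2 in WCOC. All DOP libraries and C 5 came from flow cell B and the rest from flow cell A, as the run names of the files show. DOP and WCOC can therefore not be told apart from flow cell, and in bulk tissue fewer cells of a type and less RNA per cell cannot be told apart either.

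The first question was whether the DOP diet moved these genes against C. None of the 7 tested genes was a DEG in edgeR's quasi-likelihood test, where 2 conditions define a DEG: its Benjamini-Hochberg adjusted p is under 0.05, and its log2FC is 0.58 or more in either direction. DESeq2 and limma-voom also called 0. Over all 14918 tested genes, 0.215% were called higher and 0.55% lower in DOP. At an unadjusted p under 0.05 only NNT of the 7 passed, against 17.6% of all tested genes. No gene of the 7 separated the DOP from the C pigs completely, while 3.47% of all tested genes did.

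ME1 had a log2FC of -0.31 (95% confidence interval -0.94 to 0.32) and SLC25A1 one of 0.32 (-0.25 to 0.88). PGD and TKT had log2FC of 0.12 (-0.28 to 0.51) and 0.04 (-0.42 to 0.50). IDH1 was at 0.29 (-0.02 to 0.59), with levels of 512.7 to 668.8 CPM in DOP and 428.0 to 523.4 in C. The intervals of ME1, SLC25A1 and IDH1 therefore still hold changes larger than the 0.58 limit. So do those of NNT (0.01 to 0.77) and PGLS (-1.24 to 1.44). NNT was at 0.39 (SE 0.18, edgeR adjusted p = 0.270), and its highest library, DOP 5 with 193.4 CPM, was also the library with the most skeletal muscle RNA. Without the 5 libraries above 1000 CPM of muscle markers, which leaves DOP 1 and DOP 3, the log2FC of NNT was -0.02. All DOP libraries and only 1 of 5 C libraries came from flow cell B. With flow cell as a covariate, a fit that rests on C 5, the log2FC of DOP vs. C were 1.19 for SLC25A1, 0.66 for TKT, 0.62 for NNT, 0.56 for ME1 and 0.51 for PGD, and 0 members were called (edgeR adjusted p from 0.330 to 0.795).

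The WCOC diet was compared with C next. ME1, SLC25A1 and NNT were DEGs with lower expression in WCOC, so 3 of 7 tested genes were called lower and 0 higher, beside 3.93% lower and 2.33% higher among all tested genes. The median log2FC of the 7 genes was -0.64, and that of all tested genes was 0.004. ME1 fell to a 2.92-fold lower level, SLC25A1 to a 1.91-fold lower and NNT to a 1.71-fold lower one. Groups did not overlap for NNT, as for 7.62% of all tested genes. Of the 3 calls, that of SLC25A1 was the least steady.

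For ME1, the values in C 1 to C 5 were 1653, 1934, 1498, 2310 and 905.5 CPM. In DOP 1 to DOP 5 they were 1417, 1578, 1547, 1221 and 926.6 CPM. In WCOC 1 to WCOC 5 they were 328.4, 559.9, 1006, 358.5 and 590.9 CPM. Of the WCOC pigs, 4 lay below every other pig, and WCOC 3 lay above C 5 and DOP 5 only. The log2FC of WCOC vs. C was -1.55 (SE 0.30, edgeR adjusted p = 0.00739) with means of 568.7 ± 270.9 and 1660 ± 522.8 CPM (SD, n = 5 each). It stayed a DEG in all 10 fits that left out a library, with log2FC from -1.85 to -1.40.

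For SLC25A1, the C libraries held 549.0, 292.3, 333.6, 454.3 and 199.8 CPM in order of number. The DOP libraries held 408.9, 521.3, 482.2, 506.5 and 359.9 CPM. The WCOC libraries held 119.5, 221.6, 278.7, 129.6 and 210.2 CPM. C 5 was the only control inside the WCOC range, and the DOP range lay wholly above that of WCOC. The log2FC of WCOC vs. C was -0.93 (SE 0.27, edgeR adjusted p = 0.0403). The call was lost without C 1, C 3, C 4, WCOC 1, WCOC 4 or WCOC 5, with adjusted p from 0.0629 to 0.103, while the log2FC stayed between -1.10 and -0.75 in all 10 such fits.

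For NNT, the C libraries held 92.9, 113.6, 95.4, 92.8 and 81.1 CPM. The DOP libraries held 91.0, 125.2, 98.8, 115.1 and 193.4 CPM. The WCOC libraries held 50.7, 58.7, 65.6, 43.2 and 60.04 CPM, and each of them was below all C and DOP libraries. NNT varied less between control pigs than ME1, with an SD of 12.3% of the mean against 31.5%. The log2FC of WCOC vs. C was -0.77 (SE 0.18, edgeR adjusted p = 0.0163), called in all 10 fits that left out a library.

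The other genes with lower estimates did not pass. TKT held 1222, 844.2, 1033, 1560 and 698.0 CPM in C, 982.9, 1151, 1399, 1051 and 912.3 in DOP, and 582.8, 886.8, 819.0, 475.8 and 683.4 in WCOC. Its log2FC of WCOC vs. C was -0.64 (edgeR adjusted p = 0.0764), with 3 WCOC libraries below every C library. DESeq2 called it, as did edgeR without C 5 or without WCOC 2 (adjusted p = 0.0251, 0.0448 and 0.0447). TKT was also among the 4 members called lower with flow cell as a covariate, a fit that rests on C 5 alone to link the flow cells. IDH1 held 486.2, 523.4, 428.0, 477.8 and 449.2 CPM in C and 260.0, 328.6, 386.1, 288.4 and 480.8 in WCOC. Only WCOC 5 reached the control range, and the log2FC was -0.44 (edgeR adjusted p = 0.0693). Without WCOC 5 the log2FC of IDH1 was -0.58 and it was called (adjusted p = 0.0159). PGD held 381.1 to 654.9 CPM in C and 284.9 to 543.0 in WCOC, with a log2FC of -0.36 (95% confidence interval -0.76 to 0.04). PGLS had a log2FC of 0.18 with an interval from -1.14 to 1.5.

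**Figure D2:**
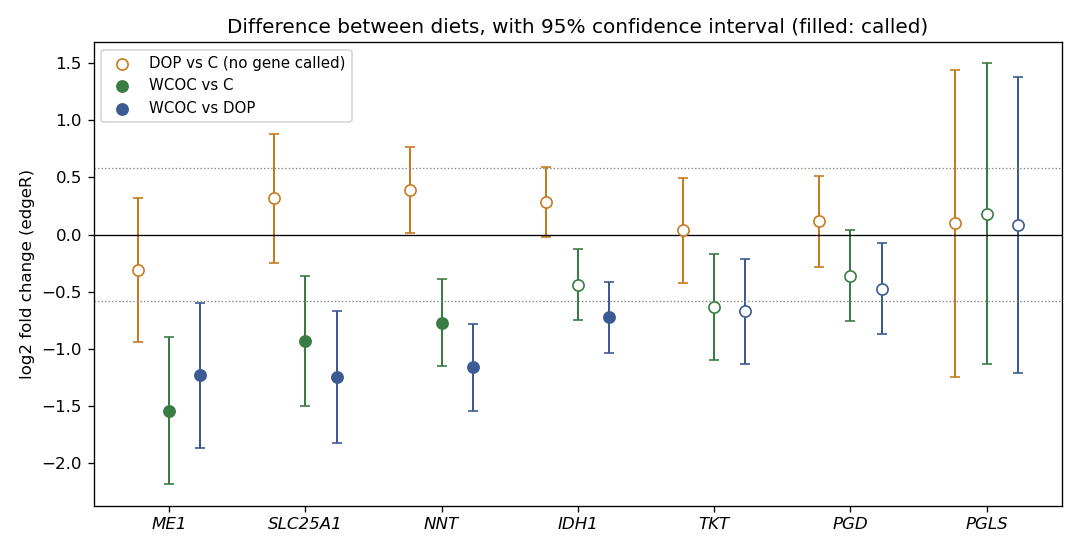
Log2 fold change (edgeR, vertical axis) of the 7 tested genes in the 3 comparisons, with 95% confidence intervals; filled points are DEGs and dotted lines mark 0.58 in either direction. Filled points occur only in the WCOC comparisons, all below 0, and the interval of PGLS spans both limits.

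Levels of macrophage markers also differed in this comparison, with 7 of the 15 genes called lower in WCOC. C 5 had the highest macrophage sum of the controls (1084 CPM) but their lowest ME1, PGD, TKT, SLC25A1 and NNT, the opposite direction. C 5 was also the only control from flow cell B, so macrophage level and flow cell cannot be told apart there. With the mean of the macrophage list as a covariate, 0 of the 7 genes were called, beside 34 of all genes. The log2FC were then -1.70 for ME1 (edgeR adjusted p = 0.103), -1.0 for NNT (adjusted p = 0.0933) and -0.98 for SLC25A1 (adjusted p = 0.346). Without the covariate they were -1.55, -0.77 and -0.93 in the same order. The macrophage list itself differed between these diets, and the cause of the lost calls was not tested. The adipocyte sum ran from 19540 to 27620 CPM in WCOC and from 18200 to 23910 CPM in C. With that list as a covariate, a fit added after seeing the data, 5 genes were called lower, TKT and PGD among them. Over all 14918 tested genes, that fit called 463 lower and 390 higher. Whether the share of adipocytes bears on these genes was not tested. Within flow cell A alone, with 4 C and 5 WCOC libraries, ME1 (-1.71), SLC25A1 (-1.10) and NNT (-0.84) were called. Of the C and WCOC libraries this fit leaves out C 5 only, so it is no separate check beside the fit without C 5.

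The WCOC and DOP groups were compared last. They also differed in compound feed, straw, silage at will, pen and flow cell, so this comparison does not isolate the by-products. The DEGs were 4 genes, all lower in WCOC: ME1, SLC25A1, NNT and IDH1. That is 4 of 7 tested genes, beside 5.11% of all tested genes called lower and 2.65% called higher. Groups did not overlap for SLC25A1, NNT, IDH1 and TKT, against 8.9% of all tested genes. The median log2FC of the 7 genes was -0.73. This comparison and that of WCOC vs. C use the same WCOC libraries.

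SLC25A1 had the lowest estimate, with a log2FC of -1.25 (SE 0.27, edgeR adjusted p = 0.0116), and ME1 was at -1.23 (SE 0.30, adjusted p = 0.0189). NNT was at -1.16 (SE 0.18, adjusted p = 0.00227), and at -0.95 (adjusted p = 0.00259) without DOP 5. IDH1 held 523.2, 580.6, 668.8, 597.2 and 512.7 CPM in DOP, each above every WCOC library, and its log2FC was -0.73 (SE 0.15, adjusted p = 0.00812). TKT (-0.67, adjusted p = 0.0544) and PGD (-0.47, adjusted p = 0.110) were not called. All 4 calls held in the 10 fits that left out a library. They were lost with flow cell as a covariate, a fit that rests on C 5 alone to link the flow cells. There the log2FC were -2.26 for ME1, -2.28 for SLC25A1, -1.45 for NNT and -0.82 for IDH1, with adjusted p from 0.253 to 0.331. They were also lost without the 5 libraries rich in muscle RNA, which leaves DOP with 2 libraries: the log2FC were -1.38, -1.22, -0.77 and -0.77 in the same order, with adjusted p from 0.0782 to 0.201.

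Ratios of genes within a library do not depend on the scaling between libraries. ME1 reads were 3.28 ± 0.739 times those of PGD in C, 2.48 ± 0.499 times in DOP and 1.44 ± 0.541 times in WCOC (SD, n = 5 each). The ranges were 2.38 to 4.37 in C and 0.993 to 2.30 in WCOC and did not overlap, and that of DOP (1.94 to 3.15) overlapped both. TKT reads were 2.10 ± 0.227 times those of PGD in C, 2.03 ± 0.156 in DOP and 1.77 ± 0.115 in WCOC. ME1 reads were 0.0572 ± 0.0121 times those of FASN, the fatty acid synthase, in C, 0.0469 ± 0.00632 in DOP and 0.0502 ± 0.00879 in WCOC, and these ranges overlapped. SLC25A1 reads were 0.0698 ± 0.0157 times those of ACLY, the citrate lyase, in C, 0.0942 ± 0.0184 in DOP and 0.0908 ± 0.0293 in WCOC. These ratios were chosen with the levels known and are not tested.

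The remaining genes of the same chemistry were read from 4 lists. Among the other NADPH and pentose phosphate genes, 17 of 19 matched genes were tested. MTHFD2, which serves mitochondrial folate metabolism, was called lower in WCOC vs. C and vs. DOP (log2FC -0.65 and -0.66, edgeR adjusted p = 0.0192 and 0.0171). MTHFD2L, its relative, was called higher in WCOC vs. C (0.85, adjusted p = 0.0235). In RefSeq, MTHFD2L shares exon sequence with EPGN on the same strand, and MTHFD2 with SLC4A5 on the opposite strand. Any bearing of these overlaps on the levels was not tested. The median log2FC of the list was -0.07 in WCOC vs. C, and 0 genes of it were called in DOP vs. C.

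The paralogs of the members were read as well. ME2, a mitochondrial malic enzyme, had levels of 24.5 ± 4.31 CPM in C and 20.5 ± 2.67 in WCOC (log2FC -0.26, edgeR adjusted p = 0.195). ME3, the other mitochondrial form, stayed under 0.25 CPM and was not tested. H6PD, an NADPH-forming enzyme of the endoplasmic reticulum, had a log2FC of 0.09 in WCOC vs. C (95% confidence interval -0.27 to 0.45). IDH2, the mitochondrial counterpart of IDH1, was at -0.44 in WCOC vs. C (adjusted p = 0.429) and was called lower in WCOC vs. DOP (-1.21, adjusted p = 0.0321). Its DOP mean of 91.6 ± 68.5 CPM held DOP 5 at 210.4 CPM, the library richest in muscle RNA.

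Of the genes that handle citrate, malate and pyruvate, 21 of 22 matched genes were tested and 0 were called in DOP vs. C. In WCOC vs. C, 6 were called lower and 0 higher. They included PDHB, a subunit of pyruvate dehydrogenase (-1.35), ACLY (-1.19), the oxoglutarate and malate carrier SLC25A11 (-0.94), the mitochondrial malate dehydrogenase MDH2 (-0.78) and the aspartate aminotransferase GOT2 (-0.61). PDHB fell from 456.7 ± 110.4 to 179.3 ± 65.5 CPM with no overlap. SLC25A11 was low, with 1.6 to 3.2 CPM in C and 0.94 to 1.56 CPM in WCOC. In RefSeq it shares exon sequence with RNF167 on the opposite strand, and any bearing on its level was not tested. ACLY had levels of 3284 to 8080 CPM in C and 870.9 to 3613 in WCOC. In WCOC vs. DOP, 10 genes of this list were called lower and 0 higher, with PDHB (-1.62), ACLY (-1.09), MDH2 (-1.0), GOT2 (-0.89), ACO1 (-0.77), GOT1 (-0.74) and MDH1 (-0.65) among them. DOP 5, the library richest in muscle RNA, was the highest DOP library for MDH2 (474 CPM), GOT2 (379 CPM) and GOT1 (115 CPM). It was not the highest for PDHB, ACLY, ACO1 or MDH1. Without DOP 5, 5 genes of this list were called lower in WCOC vs. DOP. PC, the pyruvate carboxylase that replenishes oxaloacetate, had a log2FC of 0.09 in WCOC vs. C.

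Of the genes of fatty acid synthesis, which spends NADPH, 5 of 11 tested ones were called lower in WCOC vs. C. FASN fell from 30040 ± 11250 to 11570 ± 5355 CPM (log2FC -1.38, edgeR adjusted p = 0.0192). The elongase ELOVL6 (-0.92), the acyl-CoA synthetase ACSL1 (-0.87), the carboxylase regulator MID1IP1 (-0.85) and ACLY were the others. ACACA, the acetyl-CoA carboxylase, was at -0.53 and did not pass (adjusted p = 0.163). In WCOC vs. DOP, FASN (-1.31), ACSL1 (-1.26), ACLY, ACSS2 (-0.76) and ELOVL6 (-0.75) were called lower. In DOP vs. C, MID1IP1 alone was called lower (-0.82, adjusted p = 0.0452). In redox defence, the other large user of NADPH, 1 of 10 tested genes was called lower in WCOC vs. C, the thioredoxin reductase TXNRD1 (-0.82), and 1 in WCOC vs. DOP, the biliverdin reductase BLVRB (-0.59). The median log2FC in WCOC vs. C was -0.40 for citrate, malate and pyruvate, -0.64 for fatty acid synthesis and -0.32 for redox defence. Without the 5 libraries rich in muscle RNA, 2 genes of citrate, malate and pyruvate, 0 of fatty acid synthesis and 0 of the other NADPH genes were called in WCOC vs. C, and with the macrophage covariate 0 in each list. In WCOC vs. DOP, 0 genes of these lists were called lower with flow cell as a covariate, and 0 without the libraries rich in muscle RNA. With the muscle covariate 4 genes of citrate, malate and pyruvate and 2 of fatty acid synthesis were called lower, and without WCOC 1 they were 4 and 1.

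**Figure D3:**
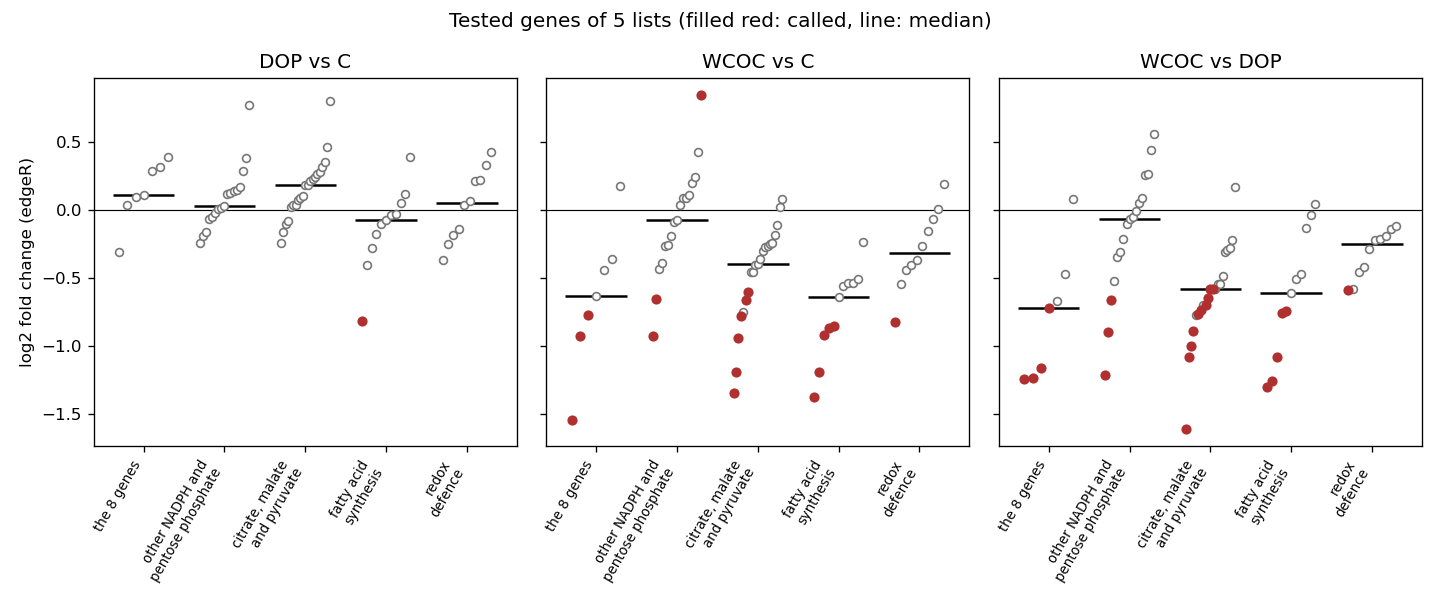
Log2 fold change (edgeR, vertical axis) of every tested gene of the 5 lists, 1 panel per comparison; red points are DEGs and lines are list medians. In the WCOC panels the medians of the 7 tested genes of the set lie at -0.64 and -0.73, and in the DOP vs. C panel only MID1IP1 is a DEG.

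Of the 21 pairs among the 7 tested genes, 5 passed by Pearson's r, all among ME1, PGD, TKT and SLC25A1. After subtracting the mean of each diet, log2 CPM of PGD and TKT were related over the 15 libraries, with Pearson's r = 0.95 and Spearman's rho = 0.94 (permutation within diets, each p = 1e-05, the smallest that 100000 permutations can give, and adjusted p = 0.00021 over 21 pairs). TKT and SLC25A1 followed with r = 0.85 (adjusted permutation p = 0.0101) and rho = 0.87 (adjusted p = 0.00913). For ME1 and SLC25A1, r was 0.83 (adjusted permutation p = 0.0101) and rho 0.68 (adjusted p = 0.0944). PGD and SLC25A1 had r = 0.75 (adjusted permutation p = 0.0243) and ME1 and TKT had the same r of 0.75 (adjusted p = 0.0243), with rho = 0.83 and 0.65 (adjusted p = 0.0104 and 0.0944). Without the 2 libraries farthest from the median of the first gene, r was 0.97, 0.82, 0.72, 0.86 and 0.69 for these 5 pairs. Within the 9 libraries of flow cell A it was 0.96, 0.82, 0.77, 0.78 and 0.64, and flow cell B holds too few for a value.

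No pair with IDH1 passed, the highest being ME1 and IDH1 with r = 0.63 (adjusted permutation p = 0.124). For NNT, r with the other 5 deeply read genes ran from 0.08 to 0.21 over the 15 libraries, with adjusted permutation p of 0.666 or more. Within flow cell A, which leaves out the DOP libraries and C 5, these r were higher, for example 0.75 with ME1 and 0.68 with IDH1. PGLS, with its few counts, was related to no other gene of the set (r from -0.22 to 0.15). All of these points share library, depth and tissue composition, and the pairs are not independent of each other.

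The genes most alike in pattern were sought among 11954 tested genes with a symbol, by Pearson's r of log2 CPM over the 15 libraries, diet differences included. For ME1 they included ELOVL6 (r = 0.96) and AIFM3 (0.95). For SLC25A1 they were ECHDC1 (0.96), VDAC1 (0.96) and HSPE1 (0.95). For NNT they were UQCRFS1 (0.97), KGD4 (0.96) and NDUFV2 (0.96), and for IDH1 they were ACSL1 (0.95), LPCAT3 (0.91) and ECHDC1 (0.90). PGD was most like HSD17B10 (0.96), TKT (0.96) and HECTD3 (0.95), and TKT was most like PGD (0.96), ECHDC2 (0.95) and FASN (0.95). For PGLS the highest r was 0.74, with ASTE1. These r are the highest of many and serve as a description only.

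**Figure D4:**
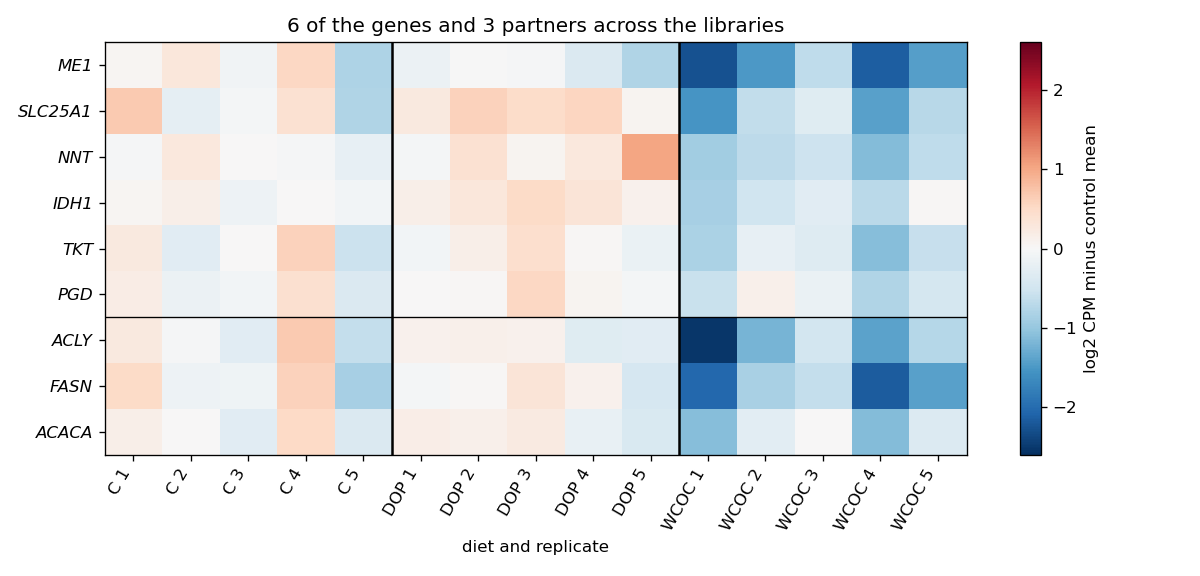
Log2 CPM minus the mean log2 CPM of the 5 control libraries (colour) for the 6 deeply read genes (above the line) and 3 partners (below it), with the 15 libraries by diet on the horizontal axis. WCOC 1 and WCOC 4 are the lowest in ME1, with 328.4 and 358.5 CPM, and DOP 5 is the highest library in NNT, with 193.4 CPM.

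The WCOC differences kept their direction in the fits that were run. Over 24 alternative fits of WCOC vs. C, log2FC ran from -1.85 to -1.40 for ME1, from -1.10 to -0.72 for SLC25A1 and from -1.0 to -0.69 for NNT. TKT, IDH1 and PGD stayed below 0 in the same fits, with the highest values at -0.47, -0.35 and -0.25. In WCOC vs. DOP the 6 deeply read genes also stayed below 0 in all 23 fits. For DOP vs. C, ME1, TKT, PGD and NNT crossed 0 in at least 1 fit.

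**Figure D5:**
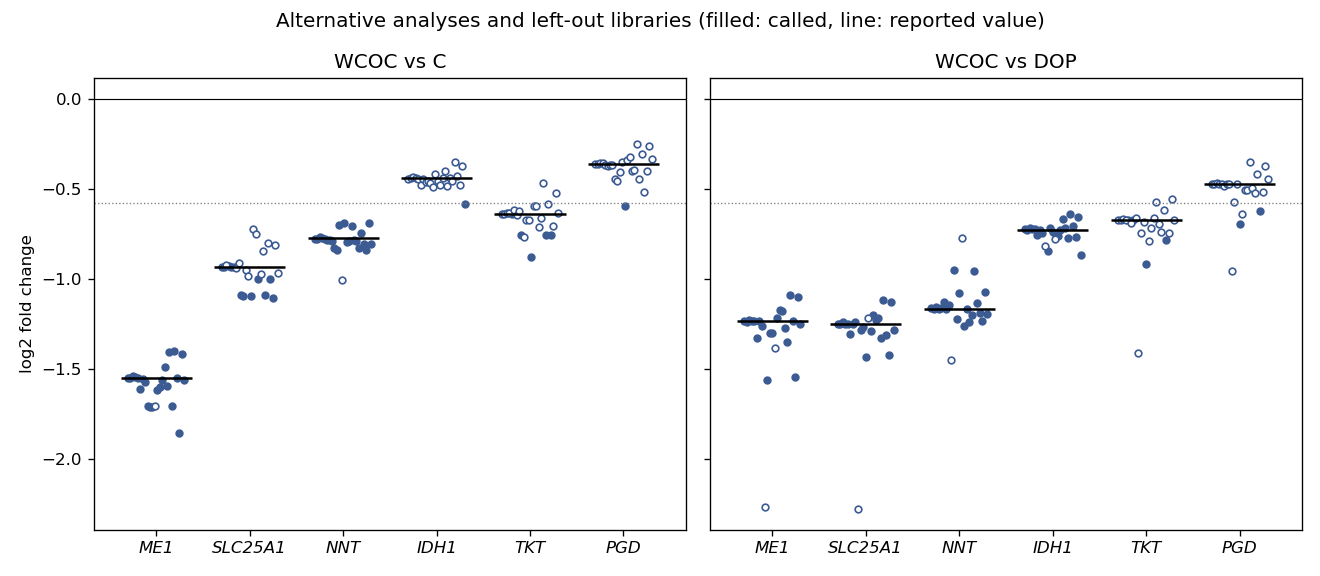
Log2 fold change (vertical axis) of the 6 deeply read genes under each alternative fit and each left-out library (points, filled where called), with the reported value as a line and the limit of -0.58 dotted. All points lie below 0, and those of SLC25A1 in WCOC vs. C are divided between called and not called.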

How the data were processed

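Backfat RNA of 5 pigs per diet was sequenced as paired ends, 1 library per pig. The authors aligned the reads to Sscrofa11.1 with HISAT2 set to a strand-specific protocol and took counts for each Ensembl gene by HTSeq after FastQC, and the deposited values are raw counts, neither normalized nor pooled. Neither the release of the annotation nor the strand setting of HTSeq is given in the sources used here. Each file held 30477 genes and 5 summary lines for uncounted pairs (23.4% to 32.8% of a library), which were left out. Diet and replicate number came from the labels. No source names litters or other sources shared between pigs, and p-values measure the spread between pigs of 1 pen per diet.

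The counts entered edgeR 4.0.16 under R 4.3.3. The 14918 genes kept by filterByExpr were scaled by TMM and fitted by quasi-likelihood with 1 mean per diet over all 15 libraries (common dispersion 0.0814). Tests were two-sided with Benjamini-Hochberg adjustment over these genes. The study's methods use DESeq2, which is an alternative here. The standard error is the coefficient divided by the root of F, and 1 was the prior count in log2 CPM. Symbols came from a reference table of gene identifiers, positions and sequences from RefSeq for Sscrofa11.1, read with pysam 0.24.0. Of 14918 tested genes, 11955 had a symbol. The workflow was tested on simulated data.

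The 8 genes, the 4 lists of related genes and the 9 lists of cell markers were chosen with earlier results of these data known. Text names all 8 genes, ACLY, FASN, ACACA, the paralogs ME2, ME3, IDH2 and H6PD, up to 8 called genes per list and comparison by size of log2FC, and the 3 genes most alike to each member, although a few genes that this rule names are not reported here. PC was named after its value was seen. Marker lists give counts and sums, with single markers named after their values were seen. Relations between genes used 100000 permutations of libraries within diets, over the 21 pairs of the 7 tested genes.

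Alternatives were DESeq2 1.42.0, its size factors, limma-voom (limma 3.58.1), TMM without muscle genes and the 50 most abundant genes, a minimum of 10 counts in every library, all genes unfiltered, a fit on the 2 diets of a comparison, a replicate block, a flow cell covariate, flow cell A alone, the muscle or macrophage list as a covariate, no limit on the log2FC, and each library left out. The adipocyte list as a covariate and the fit without the 5 libraries above 1000 CPM of muscle genes were added after seeing the data. Figures used matplotlib 3.10.9.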

Additional observations from a re-analysis of the deposited data

Results flagged for a closer look

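The level of PGD in DOP 3 was 719.4 CPM, against 477.7 to 521.4 CPM in the other 4 DOP libraries. Its gap to the nearest library was 0.819 of the whole range, above Dixon's critical value of 0.71 for 5 samples. Chance alone marks about 1 in 20 groups in this way. DOP 3 also had the highest TKT (1399 CPM) and IDH1 (668.8 CPM) of the DOP libraries, and without it the log2FC of PGD in DOP vs. C was -0.01 in place of 0.12.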

How the results depend on the processing

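In WCOC vs. C the number of called members was 3, and 2 to 4 when each library was left out. It was 0 with the macrophage list as a covariate and 5 with the adipocyte list, both fits keeping the direction of each deeply read gene. In WCOC vs. DOP it was 4, and 4 to 6 when each library was left out. It was 0 with flow cell as a covariate and 0 without the 5 libraries rich in muscle RNA, and in DOP vs. C it was 0 in every fit. The causes were not tested. The other planned fits gave 2 to 4 in WCOC vs. C and 4 to 5 in WCOC vs. DOP. SLC25A1 in WCOC vs. C also lost its call with no filter (adjusted p = 0.0502), with only the diets compared (0.0715), with the muscle covariate (0.0545) and without the muscle-rich libraries (0.228).

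No source says that the replicate numbers of the labels pair the pigs. The deviations of same-numbered libraries had correlations from -0.495 to 0.345. Differently numbered libraries were not set beside them, so this range does not settle whether the numbers pair pigs. With the replicate block, 2 members were called in WCOC vs. C, 4 in WCOC vs. DOP and 0 in DOP vs. C, and DEGs over all genes were 473 in WCOC vs. C and 561 in WCOC vs. DOP. The block ended the call of SLC25A1 in WCOC vs. C (adjusted p = 0.105).

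Values that changed sign were all of uncalled genes. In DOP vs. C they were ME1 with the flow cell covariate (0.56), NNT without the muscle-rich libraries (-0.0199), PGLS in limma-voom (-0.0312) and with the flow cell covariate (-0.75). Leaving out 1 library there gave -0.14 to 0.46 for PGLS, -0.0843 to 0.21 for TKT and -0.0146 to 0.23 for PGD. PGLS was at -2e-04 in limma-voom in WCOC vs. C, at -0.30 with the muscle covariate and -0.0103 without the muscle-rich libraries in WCOC vs. DOP, and ran from -0.14 to 0.54 and from -0.24 to 0.34 in these comparisons when a library was left out.

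Counts of DEGs over all genes moved more. The 114 of DOP vs. C became 518 in DESeq2, 19 in limma-voom, 2 with only the diets compared, 43 with the muscle covariate and 6 with the macrophage covariate, while the flow cell covariate gave 6 higher and 164 lower. The 933 of WCOC vs. C became 486 in flow cell A alone, 354 without the muscle-rich libraries, 34 with the macrophage covariate (0 higher, 34 lower) and 1493 without a log2FC limit. The 1158 of WCOC vs. DOP became 1 with the flow cell covariate, 440 with the muscle covariate, 92 without the muscle-rich libraries and 1842 without a log2FC limit. Leaving out 1 library gave 0 (without C 3) to 200 (without C 1), 468 (without WCOC 1) to 1163 (without WCOC 2) and 639 (without WCOC 1) to 1291 (without DOP 3) DEGs in the 3 comparisons. PGLS and TALDO1 had too few counts to compare the diets, and the cause was not tested.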

Other observations

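Of 13 adipocyte markers, 9 had a log2FC above 0 and 4 below 0 in WCOC vs. C, and 1 was called higher in WCOC vs. C, the hormone ADIPOQ (log2FC 0.66, edgeR adjusted p = 0.0281), with 5849 ± 1353 CPM in WCOC and 3691 ± 548.9 in C (SD, n = 5 each). In WCOC vs. DOP, 3 were called higher: LEP, the gene of leptin (1.08), ADIRF (0.99) and the lipid droplet coat PLIN4 (0.70). The list had a median log2FC of 0.16 in WCOC vs. C, against -0.64 for the 7 tested genes of NADPH and citrate supply.

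Among the other marker lists, 4 of 10 genes of fibroblasts and preadipocytes were called lower in WCOC vs. C and 2 in WCOC vs. DOP. In DOP vs. C, 1 of 15 macrophage genes was called lower, and in WCOC vs. DOP 1. Of 9 endothelial genes, 1 was called higher in WCOC vs. C. Of 6 tested skeletal muscle genes, 4 were called lower in WCOC vs. DOP. Of 4 tested epidermis genes, 1 was called higher in WCOC vs. DOP: KRT1, whose WCOC mean of 13.6 ± 26.1 CPM (SD, n = 5) rests on WCOC 5 at 59.9 CPM. No gene of the T cell (7 tested), B cell (3 tested) and erythroid (3 tested) lists was called by edgeR in a comparison. The erythroid sum reached 15780 CPM in 1 DOP library, against at most 3346 CPM in the WCOC group and 2812 CPM in C.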
